A study of Mus musculus with 18 samples.

Results

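The thioredoxins and peroxiredoxins described here are 10 genes of the 48440 in the deposited table: the thioredoxins Txn1 and Txn2, the thioredoxin reductase Txnrd1, the peroxiredoxins Prdx1 to Prdx6, and Txnip. They were taken by gene symbol, and each symbol matched 1 row of the table. Txn1 was chosen by its higher level in MDTH of high performers, so the contrast of high and low performers in MDTH is given below as a description without tests. The other members were added as the enzymes and the inhibitor that work with it.

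The study sequenced messenger RNA from the brains of Diversity Outbred mice, a stock in which every animal has its own mix of several founder genomes, to examine short-term memory. The labels name 3 tissues, the prefrontal cortex (PFC), MDTH and HPF, the last of them given only as abbreviations, and divide the mice into high and low performers. Each of the 6 groups held 3 libraries, 18 in all, and no group carried a treatment or an engineered allele in the labels. The sources used here do not give age, sex or the task that ranked the mice. Libraries were made with a stranded mRNA kit, and values are normalized counts, the unit of every level below.

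Thioredoxins are small proteins that reduce disulfide bonds in other proteins and are themselves reduced by thioredoxin reductases with electrons from NADPH. Peroxiredoxins are abundant enzymes that break down hydrogen peroxide, and most of them are returned to the reduced state by thioredoxin. Txnip binds reduced thioredoxin and blocks it, and its transcription is known to follow glucose. In the brain these genes are known for peroxide signalling and for protection of neurons and glia from oxidative damage.

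All 10 genes are protein coding and are placed here on mouse build GRCm38 with the GENCODE M21 annotation. Txn1 (ENSMUSG00000028367) lies on the minus strand of chromosome 4 from 57943373 to 57956411, and Prdx1 (ENSMUSG00000028691) on the plus strand of the same chromosome from 116685544 to 116700822. Txn2 (ENSMUSG00000005354) lies on chromosome 15 from 77915047 to 77929006, minus strand. Txnrd1 (ENSMUSG00000020250) lies on chromosome 10 from 82833951 to 82897712, plus strand. Prdx2 (ENSMUSG00000005161) lies on chromosome 8 from 84969587 to 84974834, plus strand. Prdx3 (ENSMUSG00000024997) lies on chromosome 19 from 60864051 to 60874556, minus strand, and Prdx5 (ENSMUSG00000024953) on the same chromosome and strand from 6906697 to 6910106. Prdx4 (ENSMUSG00000025289) is X-linked, from 155323918 to 155340754 on the minus strand. Prdx6 (ENSMUSG00000026701) lies on chromosome 1 from 161240112 to 161251219, minus strand, and Txnip (ENSMUSG00000038393) on chromosome 3 from 96557957 to 96561883, plus strand.

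The region just upstream of Txn1 is shown because Txn1 is the gene the results turn on. The sequence is from RefSeq on GRCm38.p6, covers the 250 bases before the annotated start, chr4:57956412-57956661 on the minus strand, and is written 5′ to 3′ with GC boxes (GGGCGG on either strand) in capitals.
Txn1: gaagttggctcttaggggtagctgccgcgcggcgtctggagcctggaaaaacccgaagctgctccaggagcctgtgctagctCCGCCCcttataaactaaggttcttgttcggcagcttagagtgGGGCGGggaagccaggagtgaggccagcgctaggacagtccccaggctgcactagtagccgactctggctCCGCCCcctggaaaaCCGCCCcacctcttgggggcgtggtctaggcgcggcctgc

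Windows of 250 bases before to 50 after the start were available for 9 of the 10 genes, all but Prdx6, in 11 windows. GC boxes were found in 9 of the 11 windows, and in 35.7% of the 32851 windows of all genes. The GC content of the 11 windows ran from 48.0% to 68.7%, beside a median of 52.7% over all windows, and its part in this count was not tested. The core of the antioxidant response element, TGACNNNGC on either strand, was present in 2 of the 11 windows and in 12.4% of all windows. The 2 were that of Prdx1 and 1 of the windows of Txnrd1. Txnrd1 has more than 1 window, and its match lay in chr10:82858956-82859255, not in the window at the gene's first base, 82833951. An E-box, CACGTG, was present in 1 of the 11, that of Prdx4, and in 7.15% of all. CCAAT boxes were present in 4 of the 11, from Txn2, Txnrd1, Prdx4 and Txnip, and in 37.4% of all. The following stretches show 4 of these matches in capitals with 8 bases on each side, on the strand of the gene. They are chr10:82859106-82859130 (plus strand), chr4:116685458-116685482 (plus), chrX:155338499-155338520 (minus) and chr3:96557812-96557867 (plus), in the order of the lines. The antioxidant response element core reads on the opposite strand in the lines for Txnrd1 and Prdx1, and the Txnip line holds a pair of CCAAT boxes, the first on the opposite strand.
Txnrd1: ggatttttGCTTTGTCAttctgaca
Prdx1: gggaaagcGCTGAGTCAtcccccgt
Prdx4: cttgcgccCACGTGgcggaggg
Txnip: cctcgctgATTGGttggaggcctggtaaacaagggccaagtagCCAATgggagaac
A match of these letters is a description of the window and not a binding site.

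The 10 genes together took 0.0633% to 0.0971% of the normalized counts of a library. Levels of different genes were compared per 1000 bases of the longest principal transcript, as the mean ± SD over the 6 libraries of a tissue. Prdx5, a peroxiredoxin of mitochondria, peroxisomes and cytosol, had the highest level per 1000 bases in each tissue, 6039 ± 583 in PFC, 6713 ± 825 in MDTH and 6460 ± 523 in HPF. Prdx2, the cytosolic peroxiredoxin known as abundant in neurons and red cells, followed in each tissue with 5169 ± 693, 5845 ± 1073 and 5325 ± 368. The SD ranges of Prdx5 and Prdx2 overlapped in PFC and MDTH but not in HPF. Txn1, the cytosolic thioredoxin, stood at 1904 ± 395 in PFC, 2458 ± 932 in MDTH and 1923 ± 106 in HPF. The mitochondrial thioredoxin Txn2 stood at 2422 ± 69.5, 2107 ± 69.0 and 2401 ± 123, and its SD range overlapped that of Txn1 in MDTH but not in PFC or HPF. Prdx4, the peroxiredoxin of the endoplasmic reticulum, and Txnip were the 2 lowest in PFC and in MDTH, with 549 ± 119 and 318 ± 190 in PFC and 949 ± 357 and 274 ± 92.2 in MDTH. They were again the lowest in HPF, with 378 ± 61.7 and 316 ± 92.9.

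Column totals ran from 50828589 to 59634490 normalized counts, and the read depth behind them is not used here. Libraries of high and low performers differed in ways other than these genes. In PFC and MDTH all high performers' libraries were named in one style and all low performers' in another, so performance and whatever the naming records cannot be told apart there. In HPF the groups shared 1 of 3 sequencing lanes. The share of counts from mitochondrially encoded genes was 5.25% to 5.59% in high and 8.25% to 8.79% in low performers of PFC, 5.53% to 6.40% and 6.52% to 8.52% in MDTH, and 6.51% to 8.63% and 4.66% to 6.25% in HPF, where the order was the opposite. Genes with transcripts under 1000 bases had a median log2 difference, high minus low, of 0.14 in PFC, 0.11 in MDTH and 0.01 in HPF. The 3 name numbers of the high performers recurred in every tissue, so the PFC and HPF libraries of high performers carry the same name numbers as the MDTH libraries by which Txn1 was chosen. Among low performers, number 130 was shared by PFC and MDTH and number 163 by MDTH and HPF. Summed markers of thalamic relay neurons ran from 107289 to 252253 in MDTH, against 8956 to 12623 in PFC and 9363 to 21356 in HPF. Hippocampal markers summed to 38156 to 60499 in HPF, against 14082 to 20438 in PFC and 11524 to 22184 in MDTH, and cortical markers were highest in PFC (95576 to 113130).

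**Figure D1:**
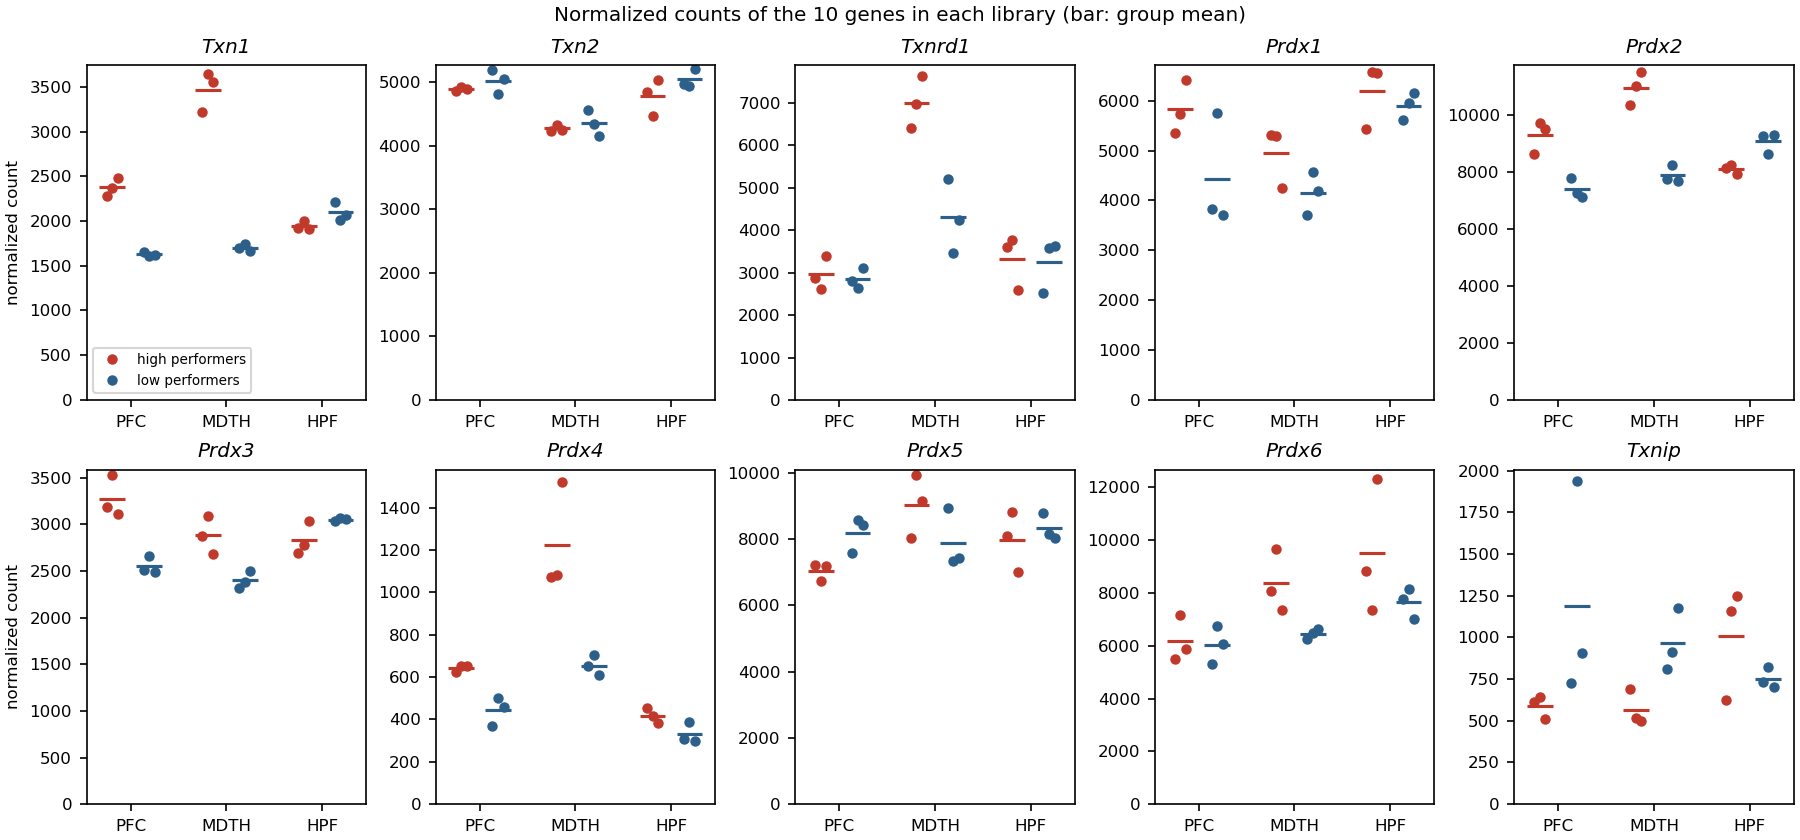
Normalized counts of the 10 genes in each of the 18 libraries (vertical axis, from 0), by tissue along the horizontal axis, with 1 point per library (red for high, blue for low performers) and a bar at each group mean. Txn1 in MDTH sits at 3214 to 3639 in high and 1662 to 1738 in low performers, while in HPF the order is the opposite, 1908 to 2001 against 2013 to 2212.

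In MDTH, the contrast by which Txn1 was selected, high performers had higher Txn1, Txnrd1, Prdx2, Prdx3, Prdx4 and Prdx6 and lower Txnip, with no overlap between the groups for these 7 genes. Txn1 was at 3214, 3639 and 3550 in high and 1699, 1738 and 1662 in low performers, a 2.04-fold higher mean. Every high library was far above every low one. Txnrd1, the selenoprotein that returns cytosolic thioredoxin to its reduced state, was at 6420, 6972 and 7634 in high against 5211, 3463 and 4240 in low performers, 1.63-fold higher. The low libraries differed more among themselves than the high ones did. Prdx4 was at 1074, 1082 and 1519 against 650, 703 and 610, 1.87-fold higher, with the third high library above the others. Prdx2 was at 10339, 11001 and 11520 against 7752, 8247 and 7673, 1.39-fold higher.

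Prdx6, a peroxiredoxin with a single catalytic cysteine and phospholipase activity that is abundant in astrocytes, was at 8073, 9671 and 7366 in MDTH of high performers and 6245, 6496 and 6631 in that of low ones, 1.30-fold higher. Prdx3, the mitochondrial peroxiredoxin, was at 2874, 3093 and 2682 against 2317, 2378 and 2498, 1.20-fold higher. Txnip stood the other way, at 688, 515 and 500 in high and 811, 912 and 1177 in low performers, 1.70-fold higher in the low group. A link between the level of Txnip and those of Txn1 and Txnrd1 was not tested. The groups overlapped for Txn2 (4241, 4337 and 4254 against 4564, 4352 and 4151), for the cytosolic Prdx1 (5307, 5298 and 4242 against 3706, 4575 and 4194) and for Prdx5 (8034, 9944 and 9149 against 8940, 7342 and 7419).

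The fit over all genes put 25.0% of 17861 genes past the threshold used here, an adjusted p below 0.05, in MDTH, and 44.2% had groups that did not overlap. Of the 10 genes, 6 were past that threshold and 7 did not overlap. Since this contrast chose Txn1, these counts are no test of the members and nothing is read from them. Marker levels differed in the same libraries. All 6 thalamic relay markers were measured, with 4 past the threshold and higher and 1 lower. Their sum was 214131 to 252253 in high and 107289 to 153603 in low performers. The 5 habenula markers, 3 of them past the threshold and lower, summed to 678 to 1812 against 2909 to 12129. Neuron markers (5 genes, 1 past the threshold and higher and 1 lower) summed to 350670 to 397692 against 280118 to 337704. Astrocyte markers (7 genes, 2 past the threshold and lower) summed to 89111 to 117183 against 117657 to 125192. The sums of cortical and hippocampal markers were higher in high performers as well. Cortical markers (5 genes, 1 past the threshold and higher, median log2 difference 0.07) summed to 19324 to 24311 against 6285 to 13157. Hippocampal markers (6 genes, 1 past the threshold and higher and 1 lower, median 0.31) summed to 15205 to 22184 against 11524 to 13722. No marker of these lists was at 0 in MDTH. Their part in the differences of the 10 genes was not tested. In RNA from whole tissue, fewer cells of a type and less RNA per cell cannot be told apart.

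**Figure D2:**
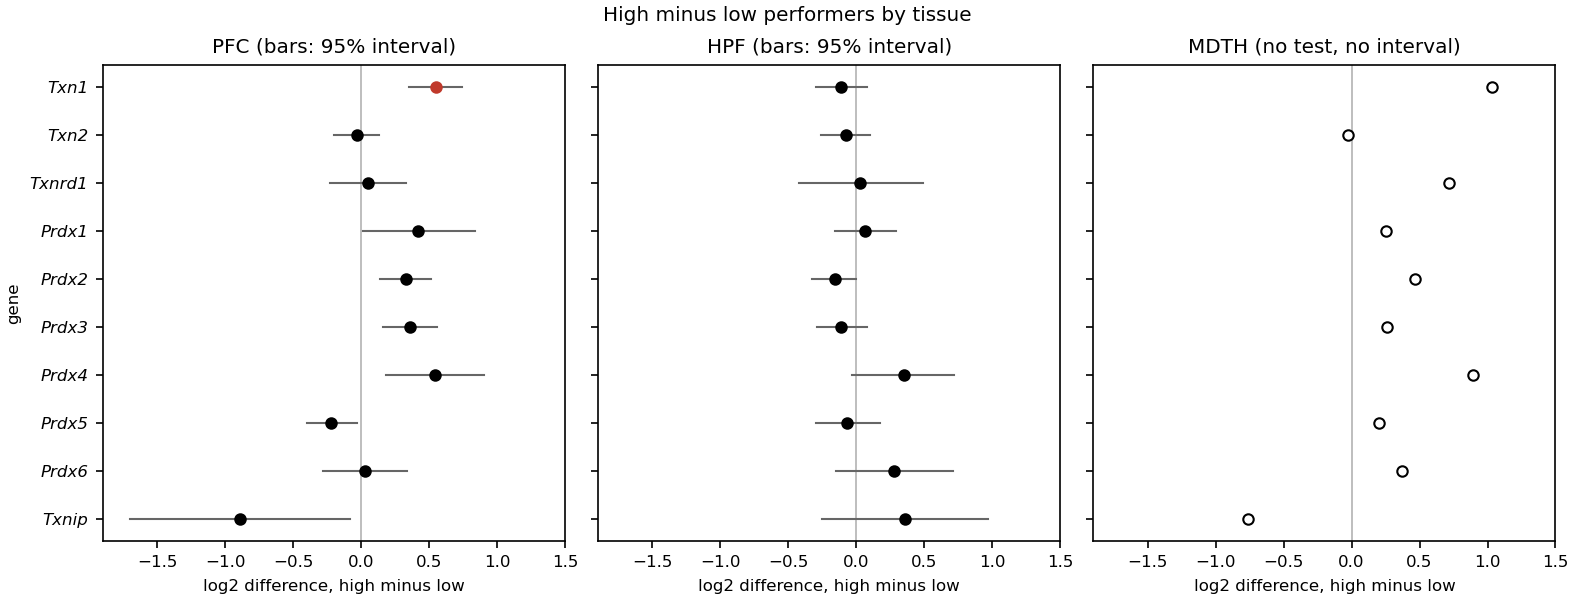
Log2 difference of high minus low performers for each of the 10 genes (horizontal axis, on the log2 scale of normalized count + 1), with bars for the 95% confidence interval in PFC and HPF, red for the gene that passed, and open points with no interval or test in MDTH, where Txn1 was picked. Txn1 is at 0.55 in PFC, 1.03 in MDTH and -0.11 in HPF.

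In PFC, Txn1 rose in high performers, and it was the only one of the 10 genes to pass the test there. It was at 2275, 2371 and 2481 in high and 1651, 1607 and 1623 in low performers. The groups did not overlap, and the low libraries lay close together. The means were 2376 ± 103 and 1627 ± 22.7 (SD, n = 3 each), 1.46-fold apart, with a log2 difference of 0.55 (SE 0.08, 95% interval 0.35 to 0.74, limma adjusted p = 0.0195). This test was not independent of the choice of Txn1 in MDTH. The 3 high libraries shared name numbers with the MDTH high libraries and deviated with them from the group means (r = 0.493, 0.494 and 0.46). Low library 1 shared its number, 130, with an MDTH low library (r = 0.346). Passing were 1 of 10 genes, or Txn1 alone, beside 5.85% of the 17991 genes tested. Over 16 alternative fits the difference stayed between 0.46 and 0.58 with adjusted p from 0.000158 to 0.0955, and 9 passed. The call was lost when any 1 high library was left out (adjusted p = 0.0524, 0.0955 and 0.0801 without high library 1, 2 and 3), and without low library 1 or 3 (0.0520 and 0.0932). It was also lost with the title numbers as a block (0.0921) and without a mean-variance trend (0.0639). Summed astrocyte markers (7 genes) were 67678 to 84758 in high and 85188 to 90969 in low performers of PFC, and microglia markers (6 genes, 2 of them past the threshold and lower) were 9786 to 11806 against 12235 to 15052. No marker of these lists was at 0, and their part in the PFC differences was not tested.

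Several peroxiredoxins had higher values in PFC of high performers without passing. Prdx3 was at 3180, 3526 and 3114 in high and 2508, 2663 and 2491 in low performers, a log2 difference of 0.36 (SE 0.08, 95% interval 0.16 to 0.56, limma adjusted p = 0.0570). Prdx2 was at 8639, 9699 and 9494 against 7787, 7272 and 7106, a log2 difference of 0.33 (SE 0.08, interval 0.14 to 0.51, limma adjusted p = 0.0587). Prdx4 was at 626, 653 and 650 against 370, 503 and 461, a log2 difference of 0.54 (SE 0.15, interval 0.18 to 0.90, limma adjusted p = 0.0839). For these 3 genes every high library was above every low one, as for Txn1. All 3 passed when the 18 libraries were fitted together and shared 1 estimate of the spread (limma adjusted p = 0.00458 for Prdx3, 0.00385 for Prdx2 and 0.0279 for Prdx4). Of 16 alternative fits, however, 2 passed for Prdx3, 3 for Prdx2 and 1 for Prdx4, with limma adjusted p up to 0.189, 0.199 and 0.227.

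Txnip was at 612, 640 and 511 in PFC of high and 725, 1936 and 907 in low performers, a log2 difference of -0.89 (SE 0.34, 95% interval -1.70 to -0.08, limma adjusted p = 0.173). The second low library, at 1936, carried much of the difference, which was -0.47 without it. The same library had the highest summed red cell (41971), oligodendrocyte (524962), microglia (15052) and endothelial markers (7370) of PFC. Its choroid plexus markers summed to 125026, within a range of 1765 to 146844 over the PFC libraries. The part of these markers in its Txnip level was not tested. Prdx5 was at 7207, 6735 and 7195 against 7585, 8584 and 8421, lower in every high library (log2 difference -0.22, limma adjusted p = 0.154). Prdx1 was at 5358, 5744 and 6426 against 3838, 5752 and 3705, with 1 low library inside the range of the high ones (log2 difference 0.42, limma adjusted p = 0.197). That library is again the second low one, and without it the Prdx1 difference was 0.63 (SE 0.10, limma adjusted p = 0.0262). This was the 1 passing fit for Prdx1 among 16 alternatives. Groups whose ranges did not overlap were found for 6 of the 10 genes, 4 higher and 2 lower, beside 30.9% of all genes tested.

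The reductase did not show in PFC the difference seen in MDTH. Txnrd1 was at 2878, 2612 and 3393 in high and 2795, 2640 and 3115 in low performers of PFC, a log2 difference of 0.05 with a 95% interval of -0.23 to 0.33 (limma adjusted p = 0.823). Prdx6 was at 5482, 7151 and 5882 against 5315, 6730 and 6069, a log2 difference of 0.03 (interval -0.28 to 0.34, limma adjusted p = 0.908). The groups overlapped for both, as they did for Txn2, at 4873, 4932 and 4903 against 5202, 4813 and 5057 (log2 difference -0.03, interval -0.20 to 0.13, limma adjusted p = 0.789). Whether the MDTH differences of these genes are larger than those in PFC was not tested, since MDTH chose the set. The median log2 difference of the 10 genes in PFC was 0.19, beside -0.009 over all genes tested.

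In HPF none of the 10 genes passed with limma, adjusted or at an unadjusted p below 0.05 (0 of 10 in both), and 0.0166% of the 18082 genes tested passed in all. Txn1 was at 1921, 2001 and 1908 in high and 2212, 2013 and 2070 in low performers, a log2 difference of -0.11 (SE 0.08, 95% interval -0.30 to 0.08, limma adjusted p = 0.590). Every high library was below every low one, by a small margin. Prdx2 stood the same way, at 8128, 8228 and 7930 against 9273, 8638 and 9305, a log2 difference of -0.16 (SE 0.07, interval -0.33 to 0.00, limma adjusted p = 0.381). These were the 2 genes of the 10 whose groups did not overlap in HPF, both lower, beside 20.0% of all genes. Prdx3 was at 2693, 2774 and 3038 against 3035, 3063 and 3052, a log2 difference of -0.11 (limma adjusted p = 0.591), the third high library lying inside the low range.

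Prdx6 in HPF was at 8813, 7337 and 12319 in high and 7754, 8151 and 7011 in low performers, a log2 difference of 0.28 (SE 0.18, limma adjusted p = 0.547) that was 0.08 without the third high library. That library, with 12319, also had the highest summed astrocyte markers of HPF, 190005, beside 102722 to 115764 in low performers, and their part was not tested. Txnip was at 622, 1161 and 1249 against 734, 822 and 705, the high libraries falling on both sides of the low ones. Prdx4 was at 452, 418 and 385 against 306, 387 and 299, overlapping by 1 library (log2 difference 0.35, interval -0.03 to 0.72, limma adjusted p = 0.406). The groups overlapped also for Txnrd1 (3595, 3761 and 2587 against 2511, 3584 and 3631), Txn2 (4848, 4469 and 5046 against 4983, 4950 and 5218), Prdx1 (5441, 6569 and 6553 against 5620, 5946 and 6147) and Prdx5 (8101, 8825 and 7015 against 8794, 8156 and 8024). The median log2 difference of the 10 genes in HPF was -0.02, beside -0.007 over all genes. Neuron markers (5 genes, 0 past the threshold) summed to 179423 to 225418 in high and 286179 to 343610 in low performers of HPF. Cortical markers (5 genes, 0 past the threshold) summed to 53974 to 68778 against 81660 to 94633. Choroid plexus markers (5 genes, 0 past the threshold) summed to 7723 to 161866 against 4168 to 6112. The sums of the other marker lists overlapped. The part of these markers in the HPF values was not tested.

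For Txn1, Prdx2 and Prdx3 the high minus low difference was larger in PFC than in HPF. The difference of the differences, PFC minus HPF, was 0.66 for Txn1 on the log2 scale (SE 0.09, 95% interval 0.45 to 0.86, limma adjusted p = 0.00153). It was 0.49 for Prdx2 (SE 0.09, interval 0.30 to 0.69, limma adjusted p = 0.00559) and 0.46 for Prdx3 (SE 0.10, interval 0.24 to 0.68, limma adjusted p = 0.0131). These 3 of the 10 genes passed, beside 9.14% of the 18254 genes tested, and each of them passed in all 24 alternative fits. Those that left out an MDTH library could change the spread but not these values. Lane, removal of the length trend and a fit without the mean-variance trend were not tried for this contrast. Transcripts under 1000 bases had a median difference of 0.14 in PFC and 0.01 in HPF, and the part of length was not tested. Txnip, with -1.25 (SE 0.44, limma adjusted p = 0.0894), passed in 3 of 24 alternative fits, among them the one with the name number as a block (0.0404). The other 6 did not pass, with values from -0.25 for Prdx6 to 0.36 for Prdx1. The mitochondrial share, which was lower in high performers of PFC and higher in those of HPF, moves with this contrast, and its part was not tested. The high and low libraries of HPF also came from lanes other than those of PFC. For Txn1, the test used libraries that share name numbers with the MDTH libraries by which it was chosen.

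**Figure D3:**
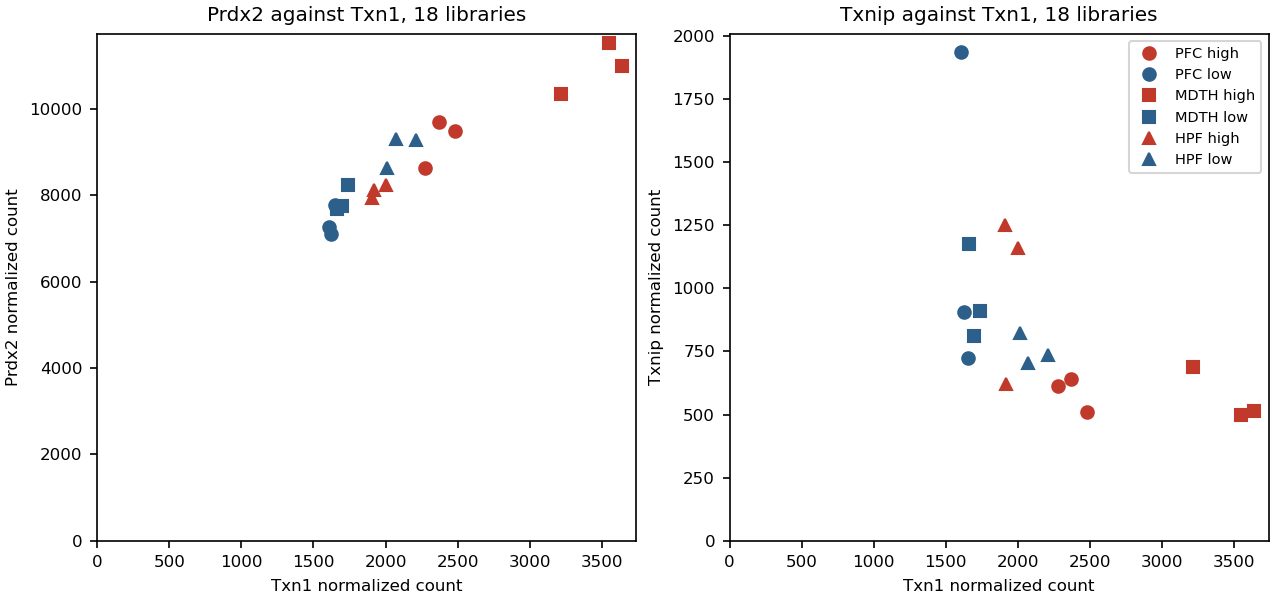
Prdx2 (left) and Txnip (right) against Txn1 in the 18 libraries, both axes in normalized counts from 0, with red for high and blue for low performers and circles, squares and triangles for PFC, MDTH and HPF. Prdx2 runs with Txn1 (Pearson r = 0.96 of log2 values), while Txnip runs the opposite way (r = -0.68).

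The level of Txn1 was ordered over the 6 groups as MDTH high (3468 ± 225), PFC high (2376 ± 103), HPF low (2098 ± 102), HPF high (1943 ± 50.3), MDTH low (1700 ± 37.7) and PFC low (1627 ± 22.7; SD, n = 3 each). No pair of neighbours in this order overlapped in its libraries, but the lowest HPF low library (2013) was close to the highest HPF high one (2001), and the lowest MDTH low library (1662) to the highest PFC low one (1651). Over all 18 libraries the genes most like Txn1, by Pearson's r of log2 values, were Ltn1 (0.965), a ubiquitin ligase of stalled ribosomes, Zmynd19 (0.958), Prdx2 (0.957), Rab5a (0.950), a GTPase of early endosomes, and Mob4 (0.950). These values rest on the same groups and libraries that chose Txn1 and are given without a test. Ltn1 averaged 4985 and 2946 in MDTH of high and low performers, 4039 and 2878 in PFC, and 3340 and 3352 in HPF for its mean levels. Among the other members r with Txn1 was 0.69 for Prdx4, 0.65 for Txnrd1, 0.51 for Prdx3, 0.32 for Prdx6, 0.31 for Prdx5, 0.23 for Prdx1, -0.40 for Txn2 and -0.68 for Txnip.

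Between tissues, Prdx4 and Txnrd1 varied most among the members. Prdx4 in MDTH was 2.39-fold above its HPF level (log2 difference 1.26, SE 0.11, limma adjusted p = 8.01e-08) and 1.67-fold above its PFC level (0.74, SE 0.11, adjusted p = 4.61e-05), and it was 1.44-fold lower in HPF than in PFC (-0.52, SE 0.11, adjusted p = 0.000985). Txnrd1 in MDTH was 1.88-fold above its PFC level (0.91, SE 0.12, limma adjusted p = 2.16e-05) and 1.68-fold above its HPF level (0.75, SE 0.12, adjusted p = 8.54e-05), while HPF and PFC did not differ past the threshold (0.16, 95% interval -0.11 to 0.43, adjusted p = 0.320). Within low performers alone, MDTH minus PFC was 0.57 for Prdx4 (limma adjusted p = 0.0322) and 0.58 for Txnrd1 (adjusted p = 0.0422). MDTH minus HPF in low performers was 0.99 for Prdx4 (limma adjusted p = 0.000984) and 0.41 for Txnrd1 (adjusted p = 0.0876). MDTH thus had more of both genes in either performance group, although the Txnrd1 difference from HPF did not pass within low performers.

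Of the 9 genes tested between MDTH and PFC, leaving out Txn1, 5 passed (Txnrd1, Prdx2 and Prdx4 higher in MDTH, Txn2 and Prdx3 lower), beside 40.7% of the 18254 genes tested. The Prdx3 call (log2 difference -0.14, limma adjusted p = 0.0442) held in 9 of 26 alternative fits, with adjusted p from 0.0104 to 0.392. Between MDTH and HPF 6 of 9 passed (Txnrd1, Prdx2 and Prdx4 higher in MDTH, Txn2, Prdx1 and Prdx3 lower), beside 58.1%. Between HPF and PFC 2 of 10 passed (Prdx6 higher and Prdx4 lower in HPF), beside 45.5%. Txn2 was lower in MDTH than in PFC by a small amount (log2 difference -0.20, SE 0.04, limma adjusted p = 0.00122) and than in HPF (-0.19, SE 0.04, adjusted p = 0.00137). Prdx1 was lower in MDTH than in HPF (-0.42, SE 0.10, limma adjusted p = 0.00290), and its HPF minus PFC value of 0.26 lay at the threshold (adjusted p = 0.0530) and passed in 7 of 26 alternative fits, among them the one with the name number as a block (0.0481). Prdx6 was higher in HPF than in PFC (0.47, SE 0.11, limma adjusted p = 0.00286), and its MDTH minus PFC value of 0.27 did not pass (adjusted p = 0.0669) but did in 7 of 26 alternative fits, among them the one with that block (0.0140). Summed astrocyte markers, a cell type in which Prdx6 is abundant, ran from 67678 to 90969 in PFC and from 102722 to 190005 in HPF, and their part was not tested.

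Some tissue differences had opposite signs in high and low performers. Prdx2 in MDTH minus HPF had a log2 difference of 0.43 within high and -0.20 within low performers. Both values are given as a description, since interactions that hold MDTH were not tested. The small pooled value for Prdx2, 0.12 (SE 0.05, limma adjusted p = 0.0400), averages these, and its call held in 17 of 26 alternative fits. Txn1 was lower in HPF than in PFC within high performers (-0.29, limma adjusted p = 0.0189) and higher within low performers (0.37), with a pooled value of 0.04 (95% interval -0.06 to 0.14, adjusted p = 0.542). As a description, Txn1 in MDTH minus PFC was 0.54 within high and 0.06 within low performers.

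**Figure D4:**
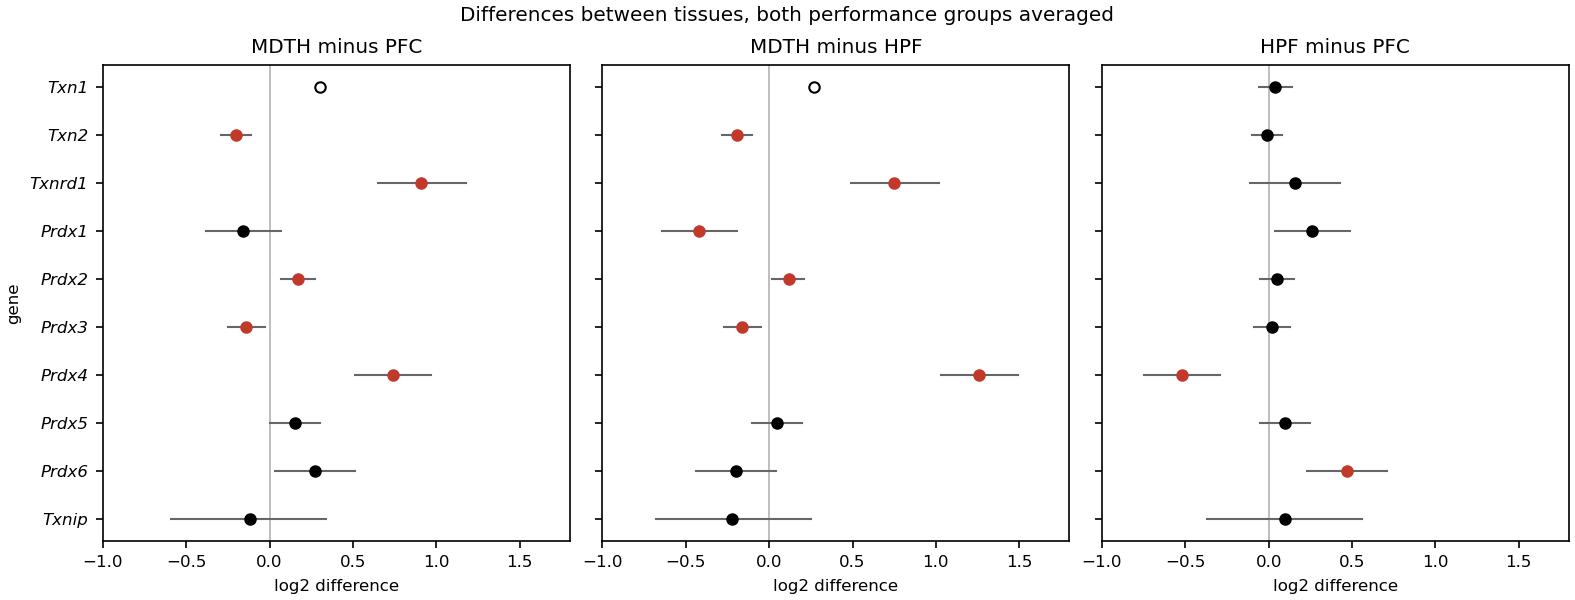
Log2 differences between tissues for the 10 genes (horizontal axis, on the log2 scale of normalized count + 1), each tissue taken as the mean of its high and low groups, with bars for the 95% confidence interval and red for genes past the threshold. Prdx4 lies at 1.26 and Txnrd1 at 0.75 for MDTH minus HPF, and Txn1 is an open point, without a test, in the contrasts that hold MDTH.

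The 6 lists of related genes were examined beside the 10, with 5.85% of all genes passing in PFC, 25.0% in MDTH and 0.0166% in HPF as the background. Of 27 thioredoxin partners, among them other thioredoxin-like proteins, sestrins and methionine sulfoxide reductases, 3 rose in PFC of high performers and 0 fell. Txndc15 was at 2647, 2799 and 2737 in high and 2032, 1748 and 1942 in low performers, a log2 difference of 0.52 (SE 0.09, limma adjusted p = 0.0265). Tmx4, a membrane thioredoxin of the endoplasmic reticulum, differed by 0.38 (SE 0.08, adjusted p = 0.0455), and Txnl1, named after its value was seen, was the third. The median over the 27 was 0.01. In MDTH 7 were higher and 1 lower past the threshold, with Map3k5, the kinase ASK1 that thioredoxin binds and holds inactive, at 2039, 3217 and 3640 in high and 1930, 1436 and 1137 in low performers, and Msrb3 at 503, 684 and 937 against 409, 307 and 390. Both had no overlap between the groups there.

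The glutathione system, which reduces peroxides beside the peroxiredoxins, gave 0 higher and 1 lower of 20 in PFC. Gclm, the modifier subunit of the enzyme that starts glutathione synthesis, was at 2465, 2601 and 2862 in high and 3703, 3693 and 3760 in low performers, a log2 difference of -0.50 (SE 0.08, limma adjusted p = 0.0253). Glrx5 was at 0.42 (adjusted p = 0.0946). MDTH had 3 higher and 5 lower, with Gpx3 at 1641, 548 and 411 against 2250, 2866 and 2140 and Gsta4 at 626, 638 and 685 against 1276, 1479 and 1300. Gsta4 had lower values in HPF of high performers too, 799, 1131 and 851 against 1944, 1248 and 1773, without passing (-0.83, limma adjusted p = 0.205), and Glrx differed there by -0.47 (adjusted p = 0.229). Of the 5 superoxide dismutases, their chaperone and catalase, 0 passed in PFC, where Sod2, the mitochondrial enzyme, was at 0.40 (limma adjusted p = 0.0700) and Sod3, the secreted one, at -0.91 (adjusted p = 0.143). MDTH had 1 higher, Sod2 (log2 difference 0.461), and 1 lower, Cat, at 3864, 2766 and 2889 in high against 4267, 4920 and 4713 in low performers. Sod3 had a log2 difference of -1.03 there and was not past the threshold. In HPF Sod2 differed by -0.10 and Ccs by -0.12 (limma adjusted p = 0.730 and 0.761).

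Nfe2l2 (Nrf2) is the transcription factor known to drive Txnrd1, Prdx1 and Gclm through antioxidant response elements. Of 17 of its regulators and targets tested, 0 were higher and 2 lower in PFC of high performers. Sqstm1, an autophagy receptor, was at 17184, 19900 and 18732 in high and 25121, 27591 and 24480 in low performers (log2 difference -0.47, SE 0.09, limma adjusted p = 0.0313). Nfe2l1, a relative of Nfe2l2 that drives proteasome genes, differed by -0.38 (SE 0.09, adjusted p = 0.0493). MDTH had 1 higher and 4 lower, with Sqstm1 at 17107, 16761 and 16921 against 25954, 26749 and 26440 and Nfe2l2 itself at 760, 665 and 664 against 1039, 1027 and 1144. Txnrd1 was higher in the same MDTH libraries, and a link between its level and that of Nfe2l2 was not tested. In HPF Nfe2l2 had higher values in high performers, 832, 895 and 1076 against 652, 737 and 657 (0.45, limma adjusted p = 0.251), and Sqstm1 lower ones (-0.22, adjusted p = 0.300). The median over the list was -0.22 in PFC, -0.29 in MDTH and -0.11 in HPF.

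The relatives of Txnip (alpha-arrestins) and the Mondo factors that drive it by glucose had 0 of 7 passing in PFC, with Mlxip at -0.27 (limma adjusted p = 0.177) and Mlxipl at -0.65 (adjusted p = 0.208). In MDTH 2 were lower past the threshold, Mlxipl (48.4, 75.9 and 98.6 in high against 124, 156 and 192 in low performers) and Arrdc3 (2478, 2441 and 2173 against 3818, 2857 and 3325). Txnip was lower in the same libraries, and a link to these genes was not tested. In HPF Arrdc1 differed by 0.35 (limma adjusted p = 0.415) and Mlx by -0.18 (adjusted p = 0.594). Of 9 glucocorticoid response genes, a group with which Txnip is known to respond, 1 fell in PFC, Pdk4 (log2 difference -1.08, SE 0.16, limma adjusted p = 0.0196), beside Sgk1 at -1.08 (SE 0.27, adjusted p = 0.0658). In MDTH 2 were higher, among them Klf9 at 10058, 9034 and 10061 against 7564, 6172 and 6368, while the groups of Pdk4 overlapped. In HPF the receptor gene Nr3c1 differed by 0.35 (limma adjusted p = 0.305) and Tsc22d3 by 0.56 (adjusted p = 0.353).

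None of the genes of the 6 lists passed with limma in HPF (0 in each list). At an unadjusted p below 0.05 there were 11 of 27 thioredoxin partners, 6 of 20 glutathione genes, 0 of 5 dismutase and catalase genes, 6 of 17 Nrf2 genes, 0 of 7 arrestins and Mondo factors and 2 of 9 glucocorticoid genes, beside 2399 of all 18082 genes tested. Nxn, a nuclear relative of thioredoxin, was at 630, 761 and 784 in high and 321, 455 and 403 in low performers of HPF (0.89, SE 0.17, limma adjusted p = 0.151), and Sesn2 at 788, 788 and 896 against 1089, 1125 and 1095 (-0.42, SE 0.10, adjusted p = 0.192). Their groups did not overlap.

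**Figure D5:**
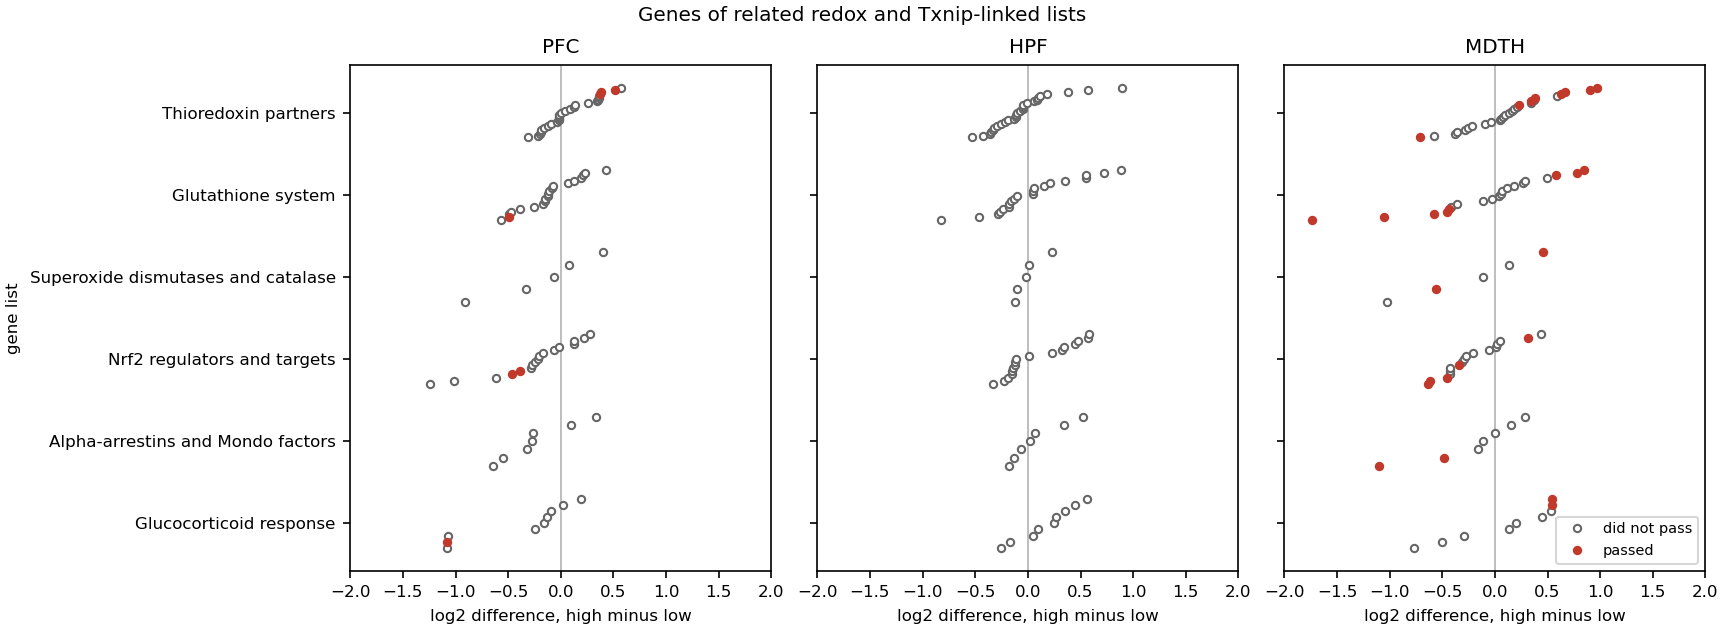
Log2 difference of high minus low performers (horizontal axis, on the log2 scale of normalized count + 1) for every tested gene of the 6 related lists, 1 point per gene in order of its value within each list, with red filled points for genes past the threshold. The 2 Nrf2 genes that passed in PFC, Sqstm1 at -0.47 and Nfe2l1 at -0.38, lie below 0, and 0 genes passed in HPF.

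Some of the members share sequence with other genes, and the sources used here do not say whether counting used strand. Prdx5 overlaps Trmt112 on the opposite strand by 409 bases of the gene spans, and Trmt112 averaged 869 normalized counts, or 10.8% of Prdx5. Prdx2 overlaps Junb by 351 bases and Rnaseh2a by 181 bases, both on the opposite strand, with means of 1808 and 848. The levels of Prdx5 and Prdx2 are uncertain to that extent. Prdx1 has 2 processed pseudogenes of at least 97.5% identity, Gm21399 and Gm7204, which together held 2.48% of its counts. Txn1 has 1 pseudogene copy of 95.8% identity, Txn-ps1, at 0.0654% of its counts.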

How the data were processed

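RNA was sequenced from 18 libraries of PFC, MDTH and HPF, 3 high and 3 low performers in each. The authors deposited 1 table of normalized counts, a signal obtained by scaling each library's gene counts, per the file name. The submitters' processing notes list STAR, Salmon and DESeq2, with neither version nor role. Genome build, annotation and use of strand are not given in the sources used here. Of the gene identifiers, 99.2% were found in GENCODE M21.

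The members and lists were chosen with earlier results of these data known. Values were taken as log2(normalized count + 1), a scale that understates changes of low genes. Genes averaging 10 or more in the libraries fitted were tested with limma 3.58.1 in R 4.3.3, two-sided with a mean-variance trend, Benjamini-Hochberg adjusted over all genes tested, with a threshold of 0.05. All 10 members passed this filter. High minus low was fitted in each tissue alone, and tissue and interaction contrasts in 1 fit of 18 libraries with 6 group means. All members were named, with, of each of the 6 lists, the 2 genes of smallest p in PFC and in HPF, the 2 of largest absolute difference in MDTH, and the 5 genes most correlated with Txn1. Only the fits within a tissue were tested on simulated data, which had independent libraries. The fit of 18 libraries was not. Alternatives were the pseudocount (0.1 and 8), no filter or a mean of at least 50, equal totals without mitochondrial genes, quantile normalization, no trend, removal of a trend with transcript length, lane as a term, replicate blocks, 1 fit for all libraries, and leaving out each library. A mean of at least 50, no trend and removal of the length trend were tried only within a tissue. Lane was a term only within HPF. Python 3.11.15 with pandas 2.3.3 prepared the tables, matplotlib 3.10.9 drew the figures and blastn 2.17.0 found copies.

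Libraries of different tissues that share a name number deviated together from their group means (r from 0.346 to 0.611 in 11 of 11 pairs), so the name number, which comes from the library names, was tried as a block, an alternative to the fits without a block that the results come from, in contrasts between tissues. The labels do not say that these come from 1 animal, nor that libraries of a group are separate animals, so a p-value reflects only the spread among these libraries, which may be technical.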

Additional observations from a re-analysis of the deposited data

Results flagged for a closer look

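The high minus low difference of Txn1 was 0.66 larger in PFC than in HPF on the log2 scale (limma interaction, adjusted p = 0.00153), with all 3 high libraries above all 3 low ones in PFC and below them in HPF. For Prdx2 the gap was 0.49 (limma adjusted p = 0.00559) with the same reversal of order. For Prdx3 it was 0.46 (limma adjusted p = 0.0131), with the groups apart in PFC and overlapping in HPF. The low groups of PFC and HPF shared no name number, so tissue and set of low libraries cannot be told apart here. The MDTH difference exceeded the HPF difference by 1.14 for Txn1 and 0.64 for Prdx2, with every high library above the low ones in MDTH and below them in HPF. These last differences were not tested, since Txn1 was picked in MDTH.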

How the results depend on the processing

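In PFC the number of members past the threshold was 1. It was 2 with a mean of at least 50, with equal totals, with quantile normalization and with the length trend removed, and 4 with all 18 libraries in 1 fit. It was 0 without a mean-variance trend and 0 with the title numbers as a replicate block. Leaving out 1 library at a time gave 0 to 2 in PFC and 0 in HPF. In MDTH it gave 3 to 5 (6 with all libraries), a count that the choice of Txn1 helped to fix and that shows nothing of stability. The title numbers do not pair libraries within a tissue (r over 0.1 in 0 of 9 pairs), so this block says nothing about a weaker effect. The name number as a block changed the calls of Prdx6, Prdx1 and Txnip given above and no other. Between tissues, 2 members passed for MDTH minus PFC within low performers alone (5 in all), and for HPF minus PFC (2 in all) 5 passed with equal totals, 5 with quantile normalization and 4 within low performers. The PFC minus HPF calls of Txn1, Prdx2 and Prdx3 held in all 24 alternatives. Lane, removal of the length trend and a fit without the mean-variance trend were not among them. The causes of these shifts were not tested.

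Among values that had passed, Prdx2 and Prdx3 in MDTH minus HPF changed sign under an alternative. Within high performers alone, HPF minus PFC was -0.29 for Txn1, -0.19 for Prdx2 and -0.21 for Prdx3, and MDTH minus HPF was 0.02 for Prdx3. Within low performers alone, MDTH minus HPF was -0.30 for Txn1, -0.20 for Prdx2, -0.08 for Prdx5 and 0.34 for Txnip, HPF minus PFC was 0.0079 for Txn2 and -0.53 for Txnip, and MDTH minus PFC was -0.06 for Prdx5. With equal totals and with quantile normalization, Txn2 in HPF minus PFC was 0.07 and 0.08, Prdx5 in MDTH minus HPF was -0.02 in both, and the Txnrd1 interaction was -0.0091 and -0.01. With lane as a term Txnrd1 in HPF was -0.49. Leaving out 1 library at a time moved across 0 the values of Txnrd1 in PFC (-0.05 to 0.14) and HPF (-0.14 to 0.20), Prdx6 in PFC (-0.08 to 0.11) and Prdx5 in HPF (-0.14 to 0.02). The same held for Txnip in MDTH minus PFC (-0.27 to 0.09), for Txn2 (-0.03 to 0.01), Prdx3 (-0.0008 to 0.05) and Txnip (-0.05 to 0.31) in HPF minus PFC, and for the interactions of Txn2 (-0.0050 to 0.08) and Txnrd1 (-0.15 to 0.19).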
